A study of Homo sapiens with 12 samples.

Results

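The 34 genes described here carry out homologous recombination and Fanconi repair of DNA. They were taken by symbol from the table of read counts, through their Ensembl identifiers. All 34 were among the 57992 genes of the table, and all 34 passed the filter on low counts that left 16022 genes for testing. The members were chosen for their function, at a time when earlier results of these data were known.

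RNA was sequenced from induced microglia-like cells (iMGLs), which are made in culture from human pluripotent stem cells and resemble the macrophages of the brain. All cells came from the H1 line, and the study asked how loss of the transcription factor MEF2C, the bacterial product LPS and the compound BMS265246 change these cells. The WT group held 3 control libraries of unedited cells and the KO group 3 control libraries of MEF2C knockout cells. WT LPS (2 libraries) and KO LPS (2 libraries) were treated with LPS, and KO LPS BMS (2 libraries) were knockout cells given LPS together with BMS265246. BMS265246 is known as an inhibitor of the cell-cycle kinases CDK1 and CDK2. The compound was given to knockout cells in the presence of LPS, so its contrast is with KO LPS. The sources used here do not state the kind of edit, the number of clones, the doses or the treatment times. Replicates are labelled as biological, with no statement of separate cultures, so the p-values measure the spread between these libraries.

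Homologous recombination copies an intact sister DNA to mend a double-strand break. The MRN complex and ATM sense the break, BRCA1, PALB2 and BRCA2 prepare the resected end for pairing with the sister DNA, and helicases and nucleases resolve what is formed. The Fanconi pathway serves crosslinks between the DNA strands: a core complex with UBE2T attaches ubiquitin to FANCD2 and FANCI, which then bring in nucleases and recombination proteins. Many of these genes are transcribed mainly in dividing cells, and several long ones are known to need the kinase CDK12 and its partner cyclin K to be transcribed to their ends.

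Promoter sequence was compared first, since genes of this pathway are known targets of E2F factors. RefSeq windows (GRCh38.p14, 250 bases before to 50 after each start) were found for 30 of the 34 genes. An E2F-type word (TTTCGCGC, TTTGGCGC, TTTCCCGC or TTTGCCGC on either strand) stood in the windows of 5 of these 30 genes (16.7%) and of 3.99% of the 27305 genes with a window. Each stretch below shows the word in capitals with 11 bases on either side, read along the strand of the gene.

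FANCA (chr16:89816801-89816830, minus strand): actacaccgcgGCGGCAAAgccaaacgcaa
FANCC (chr9:95317863-95317892, minus strand): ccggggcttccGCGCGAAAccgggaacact
FANCC (chr9:95317737-95317766, minus strand): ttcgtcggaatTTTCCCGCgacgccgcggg
FANCD2 (chr3:10026424-10026453, plus strand): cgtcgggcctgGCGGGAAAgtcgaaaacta
TOPBP1 (chr3:133661930-133661959, minus strand): ccgcgcggttgGCGCGAAAgtcggttcccg
XRCC2 (chr7:152676102-152676131, minus strand): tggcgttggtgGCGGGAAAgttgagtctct

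FANCD2, TOPBP1 and XRCC2 carried the word within 21 bases of the start of the window's transcript. The other words were also searched on both strands. The NF-Y word CCAAT was in the windows of 13 of the 30 genes (43.3%) against 39.7% of all genes, and the CHR words TTTGAA or TTCGAA were in 4 (13.3%) against 19.5%. The NRF1-type word was in 1 of the 30 (3.33%) against 1.52% of all genes, and that gene was SLX4. These are matches of letters in a window, and binding was not measured.

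Library totals ranged from 13888283 to 17639136 counts, and the limit that a 0 allows, taken as 3 counts, came to 0.154 to 0.236 CPM and covers counting error only. CPM are counts relative to the library's total after scaling by TMM. The KO LPS pair agreed least among replicates, with a chi-square per degree of freedom of 11.47 against 2.07 to 7.18 in the other pairs. MEF2C itself stood at 193, 183 and 177 CPM in WT and at 136, 129 and 135 CPM in KO, a log2 difference of -0.47 ± 0.05 (SE), with adjusted p = 4e-07 in edgeR's quasi-likelihood test. Its RNA was therefore lower but present in the knockout libraries, and a count over the whole gene does not show the edit. Microglial markers were detected (mean AIF1 406 CPM, CSF1R 2114 CPM and C1QA 989 CPM in WT), while SALL1 was near 0 in every group, with means from 0 to 0.111 CPM. Of 9 pluripotent markers 8 had any counts, with TDGF1 at 0 in every library. Of 10 lymphocyte markers 9 had any counts, with MS4A1 at 0 in every library. Most of the 2 sums came from LIN28B and NKG7, with means over all 12 libraries of 38.2 and 22.2 CPM. Several other markers were low, such as CD2, KLRD1 and CD79A at 0.453, 0.564 and 0.632 CPM.

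Members differed widely in level once divided by their summed exon length in kilobases (kb). In WT, TOPBP1, which activates the checkpoint kinase ATR, was highest at 13.8 CPM per kb, followed by the MRN subunit NBN at 10.2, the ubiquitinated Fanconi protein FANCI at 7.75 and UBE2T at 7.57. The lowest were RAD54B, a motor protein of strand exchange, at 0.382 CPM per kb and RAD51B, of the BCDX2 complex, at 0.778. In KO LPS BMS, NBN stood at 64.3 CPM per kb, TOPBP1 at 8.43 and PALB2 at 6.46. NBN thus moved from below TOPBP1 to the top of the 34 genes in all 3 groups given LPS.

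**Figure D1:**
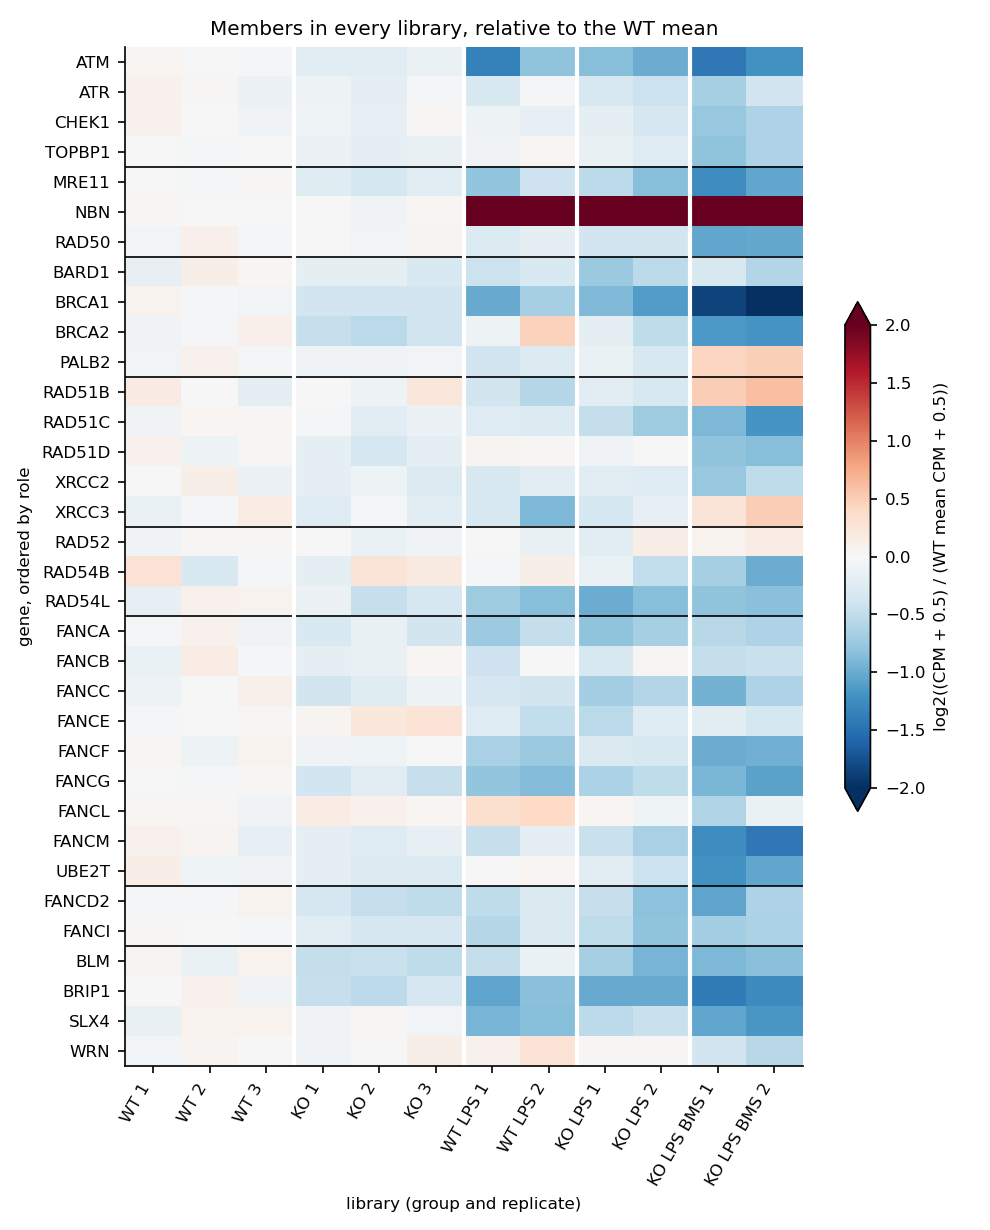
Level of each of the 34 genes (rows, grouped by role from checkpoint kinases at the top to helicases at the bottom) in each of the 12 libraries (columns), as log2 of the ratio to the WT mean with 0.5 CPM added. Blue is below and red above the WT mean, and the scale ends at 2 in each direction. NBN is the gene at the red end of the scale in the 6 libraries given LPS, and BRCA1 is the deepest blue in the KO LPS BMS libraries.

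Knockout of MEF2C without LPS went with lower RNA of 9 of the 34 genes and with higher RNA of none. A gene is called changed here where edgeR's quasi-likelihood test, with Benjamini-Hochberg adjustment over all 16022 genes, gave an adjusted p under 0.05. At that threshold 11.4% of all genes were called lower and 10.2% higher in this comparison. No member was higher at an unadjusted p under 0.05, and DESeq2 called 0 higher and 7 lower. The median log2 fold change of the 34 genes was -0.18, beside -0.02 for all genes tested. All KO libraries lay below all WT libraries for 15 members, and the same held for 22.3% of all genes.

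The 9 genes came from 5 of the 8 roles. Both members of the ubiquitinated Fanconi pair fell, FANCD2 and FANCI, as did the mediators BRCA1 and BRCA2, the helicases BLM and BRIP1, the core complex subunits FANCG and FANCA, and the nuclease MRE11. No checkpoint kinase or strand exchange factor was called, and neither was any of RAD51B, RAD51C, RAD51D, XRCC2 and XRCC3. BLM, the helicase lost in Bloom syndrome, was at 28.9, 25.3 and 29.2 CPM in WT and at 19.8, 20.2 and 19.4 in KO. Its log2 fold change was -0.49 ± 0.10 (SE, adjusted p = 0.0006 by edgeR), or 1.4-fold lower. Every KO library of BLM lay below every WT library, and the KO values were close together.

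BRCA2, a mediator of recombination, was at 33.5, 34.5 and 37.9 CPM in WT and at 25.6, 24.2 and 26.6 in KO (log2 fold change -0.47 ± 0.12, adjusted p = 0.0117 by edgeR). BRIP1, the helicase partner of BRCA1, was at 22.2, 23.7 and 21.2 CPM in WT and at 16.1, 15.5 and 17.6 in KO (-0.44 ± 0.09, adjusted p = 0.001 by edgeR). FANCD2 was at 40.1, 40.5 and 43.6 CPM in WT and at 32.7, 30.1 and 29 in KO (-0.44 ± 0.10, adjusted p = 0.00532 by edgeR). None of these 3 genes had overlapping groups. The other called falls were -0.38 ± 0.08 for BRCA1, -0.36 ± 0.09 for FANCG, -0.29 ± 0.08 for FANCI, and -0.27 ± 0.09 for both FANCA and MRE11.

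Of these 9 calls, 5 held in every alternative tried. MRE11 was lost when any 1 of the 6 libraries was left out, with an adjusted p of up to 0.16 by edgeR, and FANCA was lost when WT replicate 1, WT replicate 2, KO replicate 1 or KO replicate 3 was left out, with one of up to 0.146. MRE11 was also lost with DESeq2 and with scaling by library size alone, and FANCA with DESeq2. BRCA2 was lost without WT replicate 3 or KO replicate 2 (up to 0.0546) and FANCG without KO replicate 3 (0.0537). FANCA shares 23.6% of its exon bases with ZNF276 on the opposite strand, which differed by 0.14 ± 0.14 here and fell by 0.58 ± 0.17 with LPS in WT, where FANCA fell by 0.61 ± 0.10. Genes of cell division moved in the same comparison. Of 30 proliferation markers 21 fell and 0 rose by edgeR (0 at an unadjusted p under 0.05, 0 by DESeq2), with a median of -0.31, and their summed level went from 2959 to 3008 CPM in WT to 2317 to 2338 CPM in KO. MKI67 differed by -0.52 ± 0.07 (adjusted p = 2.25e-05 by edgeR). The part of cell division in the repair genes' values was not tested, and in bulk RNA fewer cells of a kind cannot be told apart from less RNA per cell.

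With LPS, NBN rose and nearly all other called members fell. In WT cells 2 of 34 members rose and 20 fell, where 28.9% of all genes were called higher and 30.8% lower. The median of the 34 genes was -0.33 beside -0.07 for all genes. In KO cells 1 member rose and 16 fell, against 24.5% and 20.3% of all genes, with a median of -0.29 beside -0.00. These 2 responses share no library. Of the members that fell, 14 fell in both genotypes, which was 70% of the 20 in WT and 87.5% of the 16 in KO. For all genes tested, those that fell in both made up 57.4% of the WT calls and 87% of the KO calls.

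NBN, the MRN subunit that recruits ATM to breaks, was at 63.5, 62.4 and 62.3 CPM in WT and at 301 and 316 CPM in WT LPS. Its log2 fold change was 2.30 ± 0.06 (SE, adjusted p = 2.97e-19 by edgeR), or 4.92-fold higher. In the knockout NBN went from 62.9, 59.9 and 64.7 CPM to 288 and 265 CPM in KO LPS (log2 fold change 2.14 ± 0.06, adjusted p = 1.82e-18 by edgeR). The groups were far apart in both genotypes. The other MRN subunits fell: MRE11 by 0.59 ± 0.11 on the log2 scale in WT and by 0.41 ± 0.11 in KO, and RAD50, the structural subunit, by 0.23 ± 0.07 and by 0.38 ± 0.07. NBN is on chr8:89933336-90003228 (GRCh38, minus strand), and no exon of another annotated gene overlapped its exons.

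**Figure D2:**
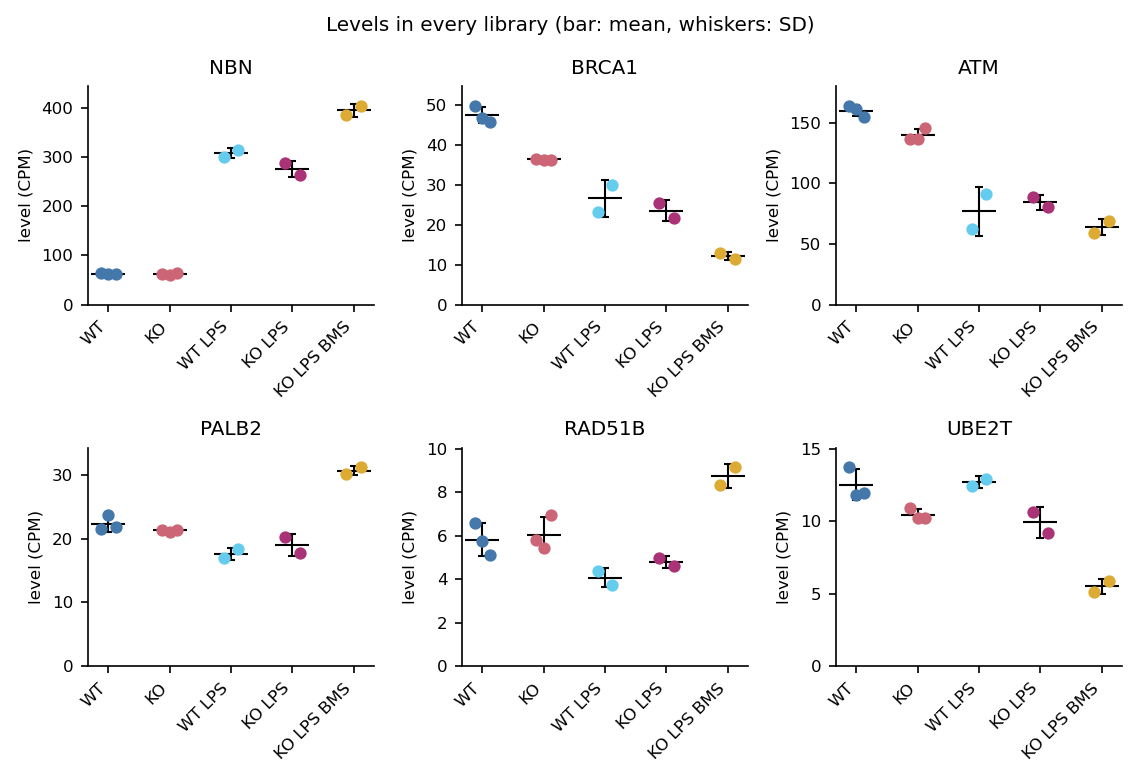
Level in CPM (vertical axes, from 0) of NBN, BRCA1, ATM, PALB2, RAD51B and UBE2T in every library of the 5 groups; bars are group means and whiskers SD. NBN is above 260 CPM in the 6 libraries given LPS and below 65 CPM in the others, and BRCA1 is at 12.8 and 11.5 CPM in the KO LPS BMS libraries.

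Among the break-sensing kinases ATM fell in both genotypes. ATM was at 164, 161 and 155 CPM in WT and at 62.3 and 91.4 in WT LPS (-1.06 ± 0.13, adjusted p = 4.05e-05 by edgeR). In KO it was at 137, 137 and 146 CPM and in KO LPS at 88.9 and 80.1 (-0.73 ± 0.13, adjusted p = 0.000963 by edgeR). The WT LPS pair differed between its replicates more than the other groups did, yet both its libraries were below all WT libraries. ATR, which answers single-stranded DNA, differed by -0.27 ± 0.09 in KO (adjusted p = 0.026 by edgeR) and by -0.16 ± 0.09 in WT (adjusted p = 0.133), and its interaction term was -0.10 ± 0.13 (adjusted p = 0.666). CHEK1 and TOPBP1 were called in neither genotype.

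Of the mediators BRCA1 fell in both genotypes and BRCA2 in neither. BRCA1, on chr17:43044295-43170245 (GRCh38, minus strand), went from 49.8, 46.8 and 45.8 CPM in WT to 23.3 and 29.9 in WT LPS (-0.83 ± 0.10, adjusted p = 1.36e-07 by edgeR). In KO it went from 36.5, 36.3 and 36.2 CPM to 25.4 and 21.6 (-0.63 ± 0.10, adjusted p = 1.83e-05 by edgeR). No library of BRCA1 with LPS reached the level of any library without it. BRCA2 differed by 0.21 ± 0.13 in WT and by 0.13 ± 0.14 in KO (adjusted p = 0.192 and 0.487 by edgeR), and its WT LPS libraries stood apart at 32.8 and 48.7 CPM. BARD1, the partner of BRCA1 in its ubiquitin ligase, fell in both (-0.38 ± 0.12 and -0.42 ± 0.12). PALB2 fell in WT (-0.34 ± 0.09, adjusted p = 0.00355 by edgeR) and differed by -0.16 ± 0.09 in KO (adjusted p = 0.176 by edgeR).

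Helicases and the nuclease scaffold SLX4 fell in the main. BRIP1 went to 10.5 and 12.3 CPM in WT LPS, from 22.2, 23.7 and 21.2 (-0.97 ± 0.11, adjusted p = 1.11e-07 by edgeR), and to 10.9 and 10.9 CPM in KO LPS, from 16.1, 15.5 and 17.6 (-0.59 ± 0.11). SLX4, which holds structure-specific nucleases, went from 41.1, 47.5 and 47.5 CPM in WT to 23.5 and 24.8 in WT LPS (-0.91 ± 0.09, adjusted p = 4.98e-09 by edgeR). In KO it went from 43.3, 45.9 and 43.5 CPM to 31.4 and 33.1 (-0.46 ± 0.08). The SLX4 libraries with LPS were all below those without, and the KO LPS pair lay above the WT LPS pair. WRN, the helicase lost in Werner syndrome, was called in neither genotype.

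Within the Fanconi core complex 6 of 9 genes fell in WT and 4 of 9 in KO. FANCG was at 22.6, 22 and 23.1 CPM in WT and at 12.9 and 12.1 in WT LPS (-0.85 ± 0.11, adjusted p = 5.56e-07 by edgeR). In KO it was at 17.2, 19.5 and 16.2 CPM and in KO LPS at 14.4 and 15.8 (-0.22 ± 0.11, adjusted p = 0.101 by edgeR). FANCE, which joins the core complex to FANCD2, fell from 10.2, 11.4 and 11.9 CPM in KO to 6.58 and 8.07 in KO LPS (-0.61 ± 0.14, adjusted p = 0.000854 by edgeR). FANCL, the ubiquitin ligase subunit, rose in WT from 13.5, 13.3 and 12.5 CPM to 16.5 and 17.5 (0.38 ± 0.12, adjusted p = 0.00839 by edgeR), and differed by -0.10 ± 0.12 in KO. It lost its call in WT without WT LPS replicate 2 or with scaling by library size alone (adjusted p up to 0.5). FANCL also needs care: 18.7% of its exon bases overlap exons of VRK2 on the opposite strand, and VRK2 moved the same way in WT, from a mean of 24.4 to 39.6 CPM with LPS (0.70 ± 0.09, adjusted p = 4.45e-07 by edgeR). The sources used here do not state whether reads were counted by strand.

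RAD54L, a motor protein of strand exchange, fell in both genotypes. It was at 7.89, 9.52 and 9.37 CPM in WT and at 5.25 and 4.75 in WT LPS (-0.84 ± 0.16, adjusted p = 9.03e-05 by edgeR). In KO it was at 8.2, 6.37 and 6.99 CPM and in KO LPS at 4.26 and 4.72 (-0.67 ± 0.17, adjusted p = 0.00199 by edgeR). The libraries with and without LPS did not overlap. RAD54L shares 25.1% of its exon bases with LRRC41 on the opposite strand, which rose by 0.24 ± 0.07 in WT and by 0.29 ± 0.07 in KO. Of the 5 genes of the BCDX2 and CX3 complexes, RAD51B and XRCC3 fell in WT (-0.52 ± 0.18 and -0.62 ± 0.17) and RAD51C in KO (-0.50 ± 0.14). Whether these responses differed between genotypes was tested by the interaction terms, whose adjusted p by edgeR were 0.712, 0.165 and 0.539.

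Scaling bears on the LPS counts. Scaled by library size alone, the median of all genes shifted by -0.29 in WT and by -0.26 in KO, the share of called genes that were higher went from 48.4% to 26.7% and from 54.7% to 25.5%, and 28 members in WT and 26 in KO were called lower. The count in KO also fell from 16 to 10 without KO LPS replicate 2, and ATR, BLM, FANCI, FANCM, MRE11 and RAD51C were among the calls lost, while BARD1 and FANCC were lost without KO LPS replicate 1. Leaving out KO libraries lost BLM (any 1 of the 3), ATR and FANCM (KO replicate 1 or 3) and FANCC (KO replicate 3), and DESeq2 lost FANCM. In WT, BARD1, BLM, FANCC, FANCD2, FANCM and RAD50 were lost without WT LPS replicate 1, and FANCC, FANCE, FANCL, RAD51B and XRCC3 without WT LPS replicate 2. Leaving out WT libraries lost BLM (WT replicate 1 or 3), FANCM (WT replicate 1 or 2), FANCC (WT replicate 3) and RAD51B (WT replicate 1), and DESeq2 lost BLM, FANCC, FANCE, FANCM and RAD51B. On simulated data the share of false calls in KO LPS against KO was above the nominal level of the threshold, at 23 of 173 calls. The data themselves gave 7182 calls in that contrast, so the simulation does not give the share of false calls there. Proliferation markers moved here too: 19 of 30 fell and 3 rose in WT and 15 fell and 1 rose in KO, to sums of 2251 to 2474 CPM in WT LPS and 1898 to 2013 CPM in KO LPS. The list did not move as a whole. In WT the DNA replication genes MCM2 and MCM4 fell by 1.53 ± 0.08 and 1.23 ± 0.06. The 3 rises were the mitotic genes CDK1 (0.52 ± 0.07), CCNB1 (0.35 ± 0.07) and AURKA (0.34 ± 0.07). Other mitotic genes fell less, such as NUSAP1 (-0.27 ± 0.06), or were not called, such as PLK1 (-0.06 ± 0.08). Lymphocyte markers summed to 17.8 to 20.6 CPM in WT, 17.6 to 20.9 in KO, 37.2 to 39.0 in WT LPS, 25.9 to 33.7 in KO LPS and 20.2 to 21.5 in KO LPS BMS, most of it NKG7, which was at 37.4 and 35.2 CPM in WT LPS. The part of either list in the result was not tested.

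KO and WT cells were then compared under LPS. BRCA2, BLM and FANCL were lower in KO LPS than in WT LPS, and FANCF and SLX4 were higher. These 3 lower and 2 higher calls stand against 15% and 15.6% of all genes, and the median of the 34 genes was -0.15 beside 0.03. BRCA2 was at 32.8 and 48.7 CPM in WT LPS and at 30.8 and 24.8 in KO LPS (-0.55 ± 0.15, adjusted p = 0.0128 by edgeR). BLM was at 19.9 and 25.4 CPM against 17.3 and 14.4 (-0.51 ± 0.13, adjusted p = 0.00378 by edgeR). The pairs of both genes did not overlap, but lay close at their nearest libraries.

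FANCL was at 16.5 and 17.5 CPM in WT LPS and at 13.5 and 12.3 in KO LPS (-0.40 ± 0.13, adjusted p = 0.0278 by edgeR). FANCF, an adaptor of the core complex, was at 5.65 and 5.25 CPM against 7.35 and 7.18 (0.42 ± 0.16, adjusted p = 0.0486 by edgeR). SLX4 was at 23.5 and 24.8 CPM against 31.4 and 33.1 (0.42 ± 0.10, adjusted p = 0.00204 by edgeR). For FANCL the overlapping gene VRK2 stood at a mean of 39.6 CPM in WT LPS and 31.9 in KO LPS. Of these 5 genes SLX4 alone was called under every alternative tried. Without WT LPS replicate 2 or without KO LPS replicate 2 no member was called lower, and without WT LPS replicate 1 or KO LPS replicate 1 there were 8. MEF2C, at 49.6 and 51.6 CPM in WT LPS and at 45.9 and 46.8 CPM in KO LPS, differed by -0.13 ± 0.07 (adjusted p = 0.187 by edgeR), so that under LPS its RNA does not tell the genotypes apart at this threshold.

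The LPS response itself differed between genotypes for FANCG and SLX4. The interaction term, which is the log2 response in KO minus that in WT, was 0.63 ± 0.15 for FANCG (adjusted p = 0.00869 by edgeR) and 0.45 ± 0.12 for SLX4 (adjusted p = 0.0139). SLX4 fell less in KO than in WT. FANCG was called lower with LPS in WT but not in KO. Without LPS it already stood lower in KO, at a mean of 17.6 CPM against 22.6 in WT. These 2 of 34 genes stand against 6.42% of all genes called higher, and 0 members were called lower, against 5.57% of all genes (1 at an unadjusted p under 0.05, and 0 by DESeq2). SLX4 lost its call without KO LPS replicate 2 (adjusted p = 0.0574 by edgeR). On simulated data the share of false calls for the interaction was above the nominal level of the threshold. For the other 32 genes no difference between the genotypes' responses passed the threshold, and with scaling by library size alone the share of all called genes that were higher went from 53.5% to 65.3%.

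With BMS265246, LPS-treated knockout cells had lower RNA of 16 members and higher RNA of 4. Of all genes 25.5% were called lower and 22.3% higher, and the median of the 34 was -0.38 beside -0.04. The 16 falls came from 6 of the 8 roles, and 3 of the 4 rises were of RAD51B, XRCC3 and PALB2. The fourth was NBN, which had risen with LPS too. All KO LPS BMS libraries lay below all KO LPS libraries for 20 members and above them for 6, where the same held for 37.6% and 32.8% of all genes.

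**Figure D3:**
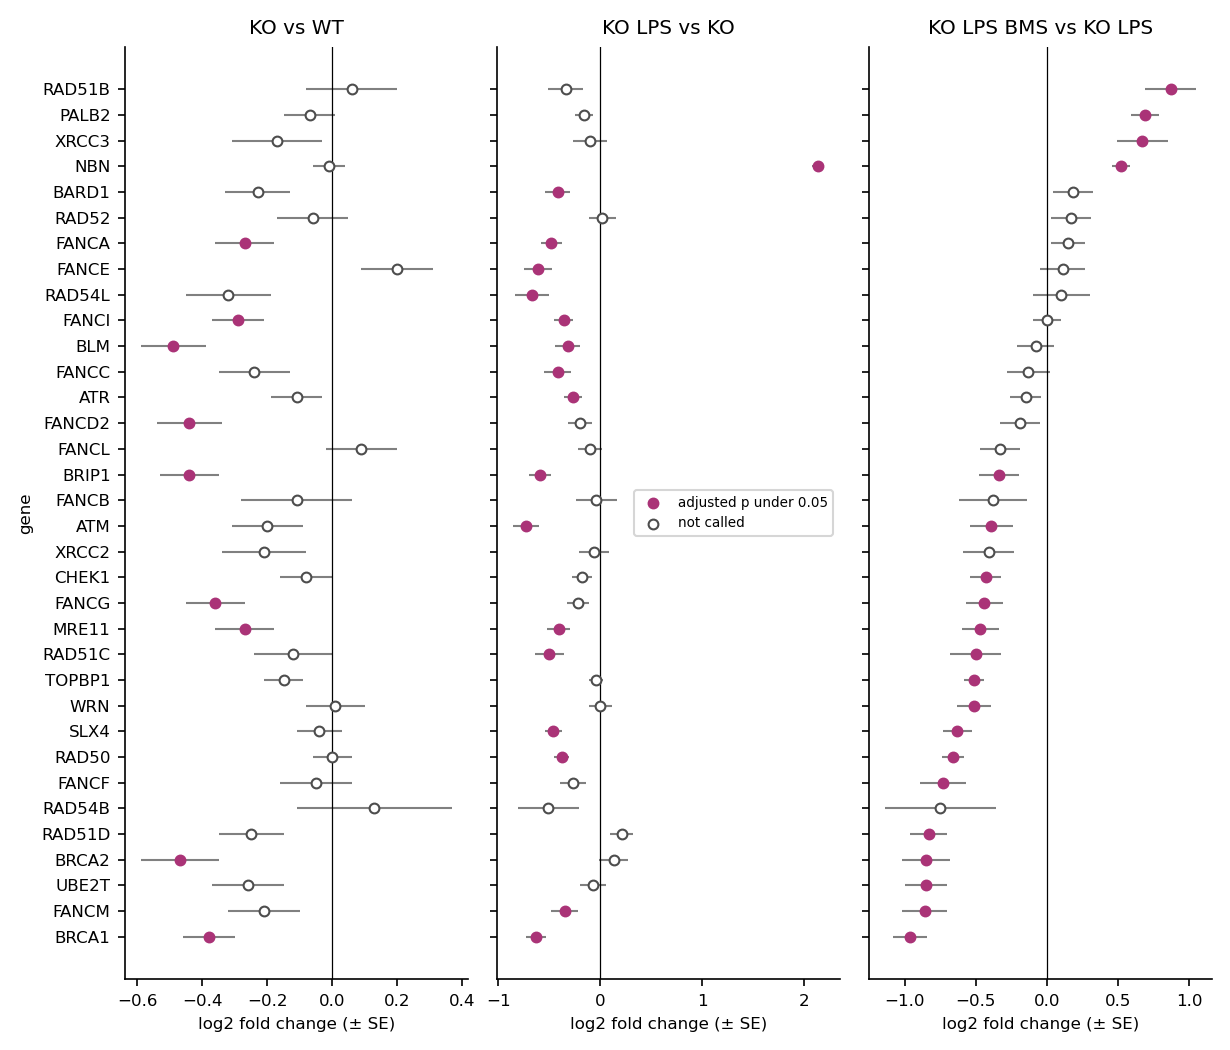
Log2 fold change ± SE (horizontal axes, each with its own scale) of the 34 genes in 3 comparisons, ordered by the change with BMS265246; filled points have an adjusted p under 0.05 and open points do not. RAD51B, PALB2, XRCC3 and NBN lie above 0 with the compound, while 16 filled points lie below 0, from -0.34 (BRIP1) to -0.96 (BRCA1).

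BRCA1 fell furthest. It was at 25.4 and 21.6 CPM in KO LPS and at 12.8 and 11.5 in KO LPS BMS (-0.96 ± 0.12, adjusted p = 1.55e-06 by edgeR), or 1.94-fold lower. BRCA2 went from 30.8 and 24.8 CPM to 15.7 and 15.3 (-0.85 ± 0.17, adjusted p = 0.00073 by edgeR). For both genes the compound pair was tight and well below the LPS pair. PALB2, the protein that joins BRCA1 to BRCA2, moved the other way, from 20.3 and 17.7 CPM to 30.2 and 31.2 (0.69 ± 0.10, adjusted p = 8.36e-06 by edgeR). BARD1 differed by 0.18 ± 0.14 (adjusted p = 0.292 by edgeR), so the members of this group did not move together.

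Among the genes of the BCDX2 and CX3 complexes the same split was seen. RAD51B, of the BCDX2 complex, went from 4.97 and 4.58 CPM in KO LPS to 8.35 and 9.14 in KO LPS BMS (0.87 ± 0.18, adjusted p = 0.000447 by edgeR). XRCC3, the partner of RAD51C in the CX3 complex, went from 7.67 and 8.82 CPM to 11.9 and 14.2 (0.67 ± 0.18, adjusted p = 0.00345 by edgeR). The groups of these genes did not overlap. RAD51D fell by 0.83 ± 0.13 on the log2 scale and RAD51C by 0.50 ± 0.18, and XRCC2 differed by -0.41 ± 0.18 (adjusted p = 0.0705 by edgeR). XRCC3 needs care: 76.7% of its exon bases overlap exons of KLC1 on the opposite strand, KLC1 went from a mean of 32.0 to 57.3 CPM (0.84 ± 0.16), and the sources used here do not state whether reads were counted by strand. XRCC3 also lost its call without KO LPS BMS replicate 2 (adjusted p = 0.0602 by edgeR).

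In the MRN complex NBN rose further while its partners fell. NBN went from 288 and 265 CPM to 386 and 405 (0.52 ± 0.06, adjusted p = 4.31e-07 by edgeR). RAD50 fell by 0.66 ± 0.08 and MRE11 by 0.47 ± 0.13 on the log2 scale. A second annotated protein-coding gene holds 79.7% of the exon bases of RAD50 on the same strand, so the RAD50 values are uncertain. MRE11 lost its call without KO LPS replicate 1 or without KO LPS BMS replicate 1 (adjusted p up to 0.173 by edgeR).

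Fanconi core genes fell in 4 of 9 cases: FANCM, UBE2T, FANCF and FANCG. FANCM, the translocase that anchors the core complex to DNA, went from 10.7 and 9.24 CPM to 5.91 and 5.15 (-0.86 ± 0.16, adjusted p = 0.00018 by edgeR). UBE2T, the ubiquitin-conjugating enzyme of the pathway, went from 10.6 and 9.17 CPM to 5.12 and 5.86 (-0.85 ± 0.15, adjusted p = 0.000111 by edgeR). The libraries with the compound lay well below those without. FANCF fell by 0.73 ± 0.16 and FANCG by 0.44 ± 0.13 on the log2 scale, and FANCG lost its call without KO LPS replicate 2 or KO LPS BMS replicate 2 (adjusted p up to 0.0895 by edgeR). The ubiquitinated pair was not called: FANCI differed by -0.00 ± 0.10 and FANCD2 by -0.19 ± 0.14 (adjusted p = 0.998 and 0.287 by edgeR), though both had been lower in KO than in WT.

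Checkpoint genes and helicases also fell. TOPBP1 fell by 0.51 ± 0.07, CHEK1, the effector kinase of ATR, by 0.43 ± 0.11 and ATM by 0.39 ± 0.15 on the log2 scale, and ATR differed by -0.15 ± 0.11 (adjusted p = 0.259 by edgeR). SLX4 fell by 0.63 ± 0.10, WRN by 0.51 ± 0.12 and BRIP1 by 0.34 ± 0.14, while BLM differed by -0.08 ± 0.13 (adjusted p = 0.645 by edgeR). RAD52, RAD54L and RAD54B were not called. The ATM call was lost without any 1 of the 4 libraries (adjusted p up to 0.266 by edgeR), and so was that of BRIP1 (up to 0.202). BRIP1 held its call in 1 of 9 alternatives, that of scaling by library size alone. CHEK1 was lost without KO LPS replicate 1 (0.075) and RAD51C without KO LPS replicate 1 or KO LPS BMS replicate 2 (up to 0.271). BRIP1 and RAD51C were also lost with DESeq2, with no filter on low counts and with only the groups compared.

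The sequence before PALB2 and SLX4 is shown because each shares its promoter region with a gene on the other strand. Each line runs from the nearest exon of the neighbour to the annotated start of the named gene in GRCh38.p14, with the CCAAT word on the opposite strand of PALB2, and the part of the NRF1-type word that lies before the start of SLX4, in capitals.

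PALB2 (chr16:23641311-23641391, minus strand): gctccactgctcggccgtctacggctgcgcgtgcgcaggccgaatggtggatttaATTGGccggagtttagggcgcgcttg
SLX4 (chr16:3611607-3611727, minus strand): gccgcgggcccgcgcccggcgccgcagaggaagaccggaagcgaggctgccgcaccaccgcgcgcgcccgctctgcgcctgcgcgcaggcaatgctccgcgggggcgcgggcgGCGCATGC

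Neighbours that start within 1000 bases on the other strand were looked up after the members' values had been seen. PALB2 starts 82 bases from DCTN5, and DCTN5 differed by -0.15 ± 0.07 with the compound (adjusted p = 0.0866 by edgeR) where PALB2 rose by 0.69. SLX4 starts 130 bases from DNASE1, which fell with SLX4 in each contrast with LPS or the compound: by 1.26 ± 0.12 in WT LPS, by 0.60 ± 0.11 in KO LPS and by 0.49 ± 0.14 with the compound on the log2 scale. ATM and its neighbour NPAT did not pair in this way, since NPAT differed by -0.04 ± 0.10 with LPS in WT and by -0.03 ± 0.10 in KO (adjusted p = 0.717 and 0.849 by edgeR). NBR1, which starts 236 bases from BRCA1, rose by 0.27 ± 0.05 with LPS in each genotype and fell by 0.62 ± 0.06 with the compound. XRCC3 and its neighbour ZFYVE21 both rose with the compound, by 0.67 and by 0.58 ± 0.11. With LPS in WT, however, XRCC3 fell by 0.62 ± 0.17 and ZFYVE21 rose by 0.24 ± 0.10. The neighbours of MRE11, FANCM and FANCF (ANKRD49, FKBP3 and GAS2) were not called with LPS or the compound. RAD52 and FANCB were not called with either, while their neighbours ERC1 and MOSPD2 rose with LPS in WT. ERC1 also rose with LPS in KO, by 0.59 ± 0.07, and fell with the compound by 0.62 ± 0.08 on the log2 scale. MOSPD2 was called in neither of these.

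Gene length was examined because long repair genes are known to depend on kinases of transcription. The 34 genes had a median length in the genome of 74.4 kb, from 3.0 kb (FANCF) to 910.4 kb (RAD51B). Of them 28 (82.4%) were longer than 30 kb, against 46.4% of the 15966 tested genes with a length. Across the 34 genes the log2 change with the compound and log10 length had a Pearson r of 0.22 and a Spearman rho of 0.10, and without RAD51B these were 0.04 and 0.02. The relation was stronger and of the other sign for KO LPS against WT LPS, with r = -0.37 and rho = -0.37 (-0.55 and -0.45 without RAD51B), and for the interaction, with r = -0.33 and rho = -0.26 (-0.41 and -0.30). In the other 4 comparisons r was -0.02 (KO against WT), 0.09 (WT LPS against WT), -0.07 (KO LPS against KO) and 0.09 (KO LPS BMS against KO). In the same order rho was -0.04, 0.06, -0.27 and -0.01. By rank, KO LPS against KO thus lay near the interaction, and its rho was -0.27 without RAD51B too. The genes share the same libraries, as do several of the comparisons, so these are descriptions. With the compound, the median of all tested genes was -0.06 under 10 kb, -0.01 from 10 to 30 kb, -0.03 from 30 to 100 kb and -0.06 over 100 kb. Over the same ranges it was 0.13, 0.07, -0.04 and -0.04 for KO LPS against WT LPS. For the interaction it was 0.13, 0.08, 0.0 and -0.0. In these 2 comparisons longer genes thus lay lower among all tested genes too, and the relation is not particular to the members. Of the 2 members under 10 kb 2 fell and 0 rose with the compound, against 22.2% and 18.3% of all genes of that length. Of the 8 over 100 kb 4 fell and 1, RAD51B, rose, against 28.8% and 22.5%. Counts over whole genes do not show transcription to their ends, so a dependence on kinases of transcription was not tested.

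**Figure D4:**
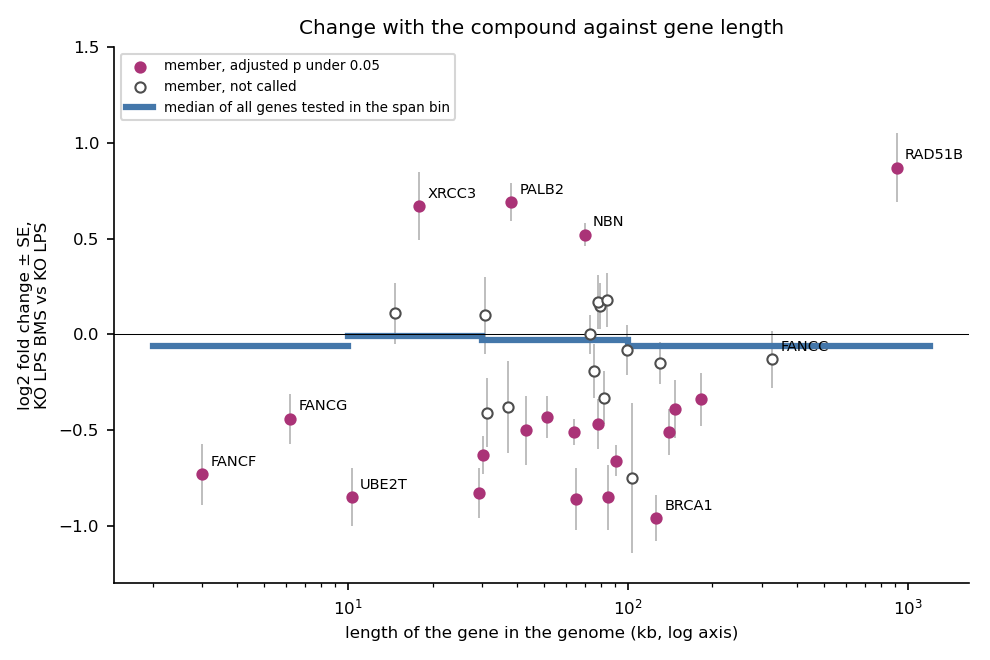
Log2 fold change ± SE of each of the 34 genes with BMS265246 (vertical axis) against gene length in the genome in kb (horizontal log axis); blue bars give the median of all tested genes in each length range. The short genes FANCF, FANCG and UBE2T lie below 0, and the longest, RAD51B at 910.4 kb, is the highest point.

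Transcriptional and cell-cycle kinases and cyclins moved in both directions with the compound. Of 20 genes 5 rose and 5 fell, against 22.3% and 25.5% of all genes, with a median of -0.01. These counts are near the shares of all genes and do not set the list apart. CDK12, CDK13 and their partner cyclin K (CCNK) differed by -0.16 ± 0.07, 0.02 ± 0.07 and 0.63 ± 0.10 (adjusted p = 0.0656, 0.827 and 1.57e-05 by edgeR). CDK2 differed by -0.00 ± 0.12 (adjusted p = 0.999). CCNT1, the cyclin of the elongation kinase P-TEFb, rose by 1.12 ± 0.07 and the cell-cycle kinase CDK6 by 0.94 ± 0.08, while the mitotic cyclins CCNB1 and CCNA2 fell by 0.56 ± 0.09 and 0.50 ± 0.08 on the log2 scale. The other P-TEFb genes, named after their values were seen, rose too, CDK9 by 0.49 ± 0.07 and CCNT2 by 0.48 ± 0.07. With LPS in KO, CCNT1 had risen by 0.39 ± 0.07, CDK9 by 0.48 ± 0.07 and CCNT2 by 0.42 ± 0.07. With LPS, CDK12 rose by 0.45 ± 0.06 in WT and by 0.44 ± 0.06 in KO. RNA levels do not measure kinase activity.

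Knockout cells given LPS and the compound together were also set beside knockout cells given neither. This difference holds the LPS response as well as that to the compound, and shares KO LPS BMS with the contrast above and KO with the LPS response. Of the 34 genes 27 were lower and 4 higher, against 32.4% and 30.3% of all genes, with a median of -0.56 beside -0.06. BRCA1 was 3-fold lower (-1.59 ± 0.11, adjusted p = 3.86e-11 by edgeR), from 36.5, 36.3 and 36.2 CPM in KO to 12.8 and 11.5 CPM. FANCM went from 12.8, 12.2 and 13.1 CPM to 5.91 and 5.15 (-1.21 ± 0.15) and ATM from 137, 137 and 146 CPM to 59.4 and 69.0 (-1.12 ± 0.14, beside -0.73 with LPS alone). RAD54B, at 1.74, 2.52 and 2.36 CPM in KO and at 1.1 and 0.772 in KO LPS BMS, fell by 1.26 ± 0.34, lost its call without KO LPS BMS replicate 2 (adjusted p = 0.0572 by edgeR), and shares 59.1% of its exon bases with FSBP on the same strand.

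Higher in KO LPS BMS than in KO were NBN (2.66 ± 0.06), XRCC3 (0.57 ± 0.16), PALB2 (0.53 ± 0.09) and RAD51B (0.53 ± 0.16). PALB2 was at 21.3, 21.1 and 21.4 CPM in KO and at 30.2 and 31.2 CPM with LPS and the compound, with no overlap. FANCB, BARD1 and RAD52 were the 3 members not called. Scaled by library size alone, the median of all genes shifted by -0.33, the share of called genes that were higher went from 48.4% to 26.1%, and NBN was the 1 member called higher. Without KO LPS BMS replicate 2 there were 2 called higher, with XRCC3 and RAD51B lost, and the falls of FANCA, FANCE and RAD54B were lost too. FANCD2, FANCL and XRCC2 were lost without KO LPS BMS replicate 1.

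**Figure D5:**
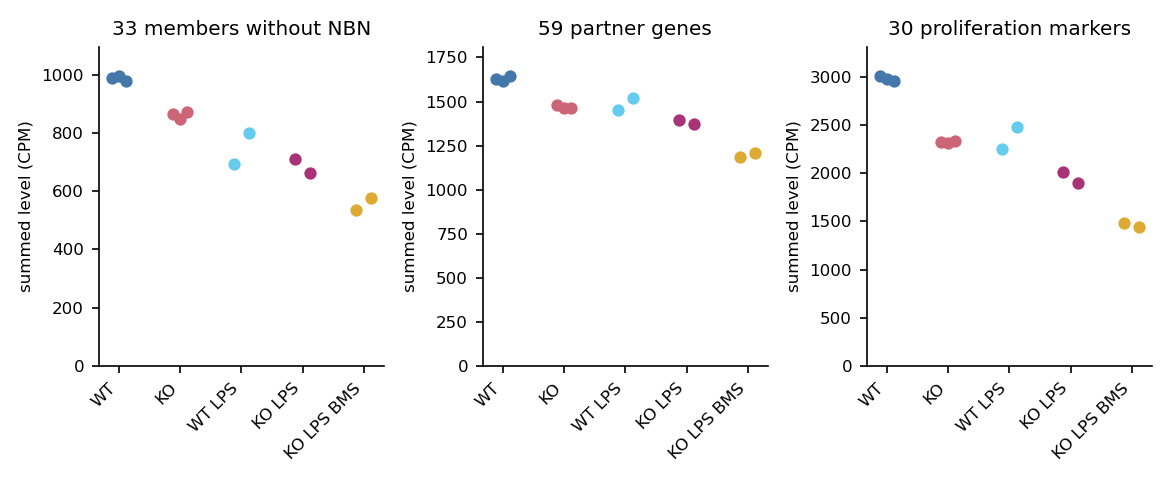
Summed level in CPM (vertical axes, from 0) of the 33 members other than NBN, of 59 partner genes of the pathway and of 30 proliferation markers, with 1 point per library in the 5 groups. All 3 sums are highest in WT and lowest in KO LPS BMS, at 535 to 575, 1187 to 1208 and 1446 to 1484 CPM.

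Summed over the 33 members other than NBN, the level was 979 to 995 CPM in WT, 846 to 873 in KO, 692 to 800 in WT LPS, 662 to 710 in KO LPS and 535 to 575 in KO LPS BMS. NBN made up the difference in the sum of all 34, which was 1041 to 1058 CPM in WT and 921 to 980 CPM in KO LPS BMS. Proliferation markers were at 1446 to 1484 CPM in KO LPS BMS, where 23 of 30 fell and 3 rose against KO LPS. NUSAP1 fell by 1.06 ± 0.08 and RRM2 by 0.92 ± 0.07 on the log2 scale, and MKI67 differed by -0.16 ± 0.09 (adjusted p = 0.137 by edgeR). The part of cell division in the members' values was not tested. Markers of pluripotent cells summed to 57.9 to 59.8 CPM in KO against 39.4 to 41.4 in WT, most of it LIN28B, and to 26.9 to 29.7 CPM in KO LPS BMS, and those of haematopoietic progenitors to 187 to 193 CPM in WT, 225 to 245 in KO, 144 to 171 in WT LPS, 210 to 263 in KO LPS and 256 to 273 in KO LPS BMS. Their part in the result was not tested either.

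Another 59 genes of the same pathways, of which 56 were tested, include nucleases, RPA subunits and the factors that choose between repair routes. In KO against WT 14 of the 56 fell (25%, against 11.4% of all genes) and 0 rose (against 10.2%; 0 at an unadjusted p under 0.05, and 0 by DESeq2), with a median of -0.14. With LPS in WT 25 fell (44.6%, against 30.8%) and 12 rose (21.4%, against 28.9%), and in KO 20 fell (35.7%, against 20.3%) and 6 rose (10.7%, against 24.5%). With the compound 23 fell (41.1%, against 25.5%) and 4 rose (7.14%, against 22.3%), with a median of -0.24.

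The partner genes with the lowest adjusted p in each direction with the compound were TP53BP1 and WDR48 among the falls and RNF168 and RIF1 among the rises. TP53BP1, which shields ends from resection, was at 42.7 and 41.3 CPM in KO LPS and at 15.4 and 15.6 in KO LPS BMS (-1.44 ± 0.10, adjusted p = 2.07e-10 by edgeR). WDR48, a partner of the deubiquitinase USP1, fell by 0.90 ± 0.09 on the log2 scale (adjusted p = 2.29e-08 by edgeR). RIF1, an effector of TP53BP1, went from 109 and 92.3 CPM to 129 and 138 (0.41 ± 0.08, adjusted p = 0.000353 by edgeR). RNF168, the ligase that marks chromatin for TP53BP1, went from 26.2 and 23.5 CPM to 42.5 and 46.2 (0.83 ± 0.09, adjusted p = 1.48e-07 by edgeR). The libraries of TP53BP1, RIF1 and RNF168 with and without the compound did not overlap. With LPS, RIF1 rose by 0.63 ± 0.08 in WT and by 0.49 ± 0.08 in KO, MAD2L2, a shieldin subunit, by 0.88 ± 0.12 and 1.02 ± 0.13, and ERCC1, a nuclease subunit, fell by 1.14 ± 0.07 and 0.41 ± 0.07 on the log2 scale. With the compound MAD2L2 fell by 0.88 ± 0.15 (adjusted p = 0.000119 by edgeR), and so did RBBP8, a factor of end resection named after its values were seen, by 0.96 ± 0.12 on the log2 scale.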

How the data were processed

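Total RNA was extracted with TRIzol and sequenced as 12 libraries made with a NEBNext Ultra RNA kit, per the labels. The values used are the raw counts of reads that the authors deposited, whole numbers in 1 table. The submitters' processing notes name CASAVA 1.7, Cufflinks and GRCh38; aligner, counter, annotation release and strand setting are not stated there or in the labels. Groups and replicate numbers come from the sample titles. Genes were kept by filterByExpr (16022 of 57992) and libraries scaled by TMM. A robust quasi-likelihood model with a mean for each group was fitted to all 12 libraries together (edgeR 4.0.16, R 4.3.3), with 2-sided tests and Benjamini-Hochberg adjustment over all genes tested; the common biological coefficient of variation was 0.064. A gene was called at an adjusted p under 0.05. SE is that of the log2 fold change. CPM are on TMM-scaled libraries. The test was run on simulated data first. The share of false calls there was above the nominal level for KO LPS against KO and the interaction. It was slightly above that level for KO against WT, and below it for the compound against KO LPS. Far fewer genes were changed in the simulation than were called in the data, so these shares do not carry over to the data. Positions and exon lengths are from GENCODE 29 and promoter windows from RefSeq.

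The members and lists were chosen with earlier results of these data known. Values of every library are given for up to 4 called members per direction with the largest change and a mean of at least 1 CPM. From other lists up to 2 called genes per direction with the lowest adjusted p may be named, and MEF2C, CDK12, CDK13, CCNK, CDK2 and MKI67 always. Some genes that these rules name are not reported here. Deviations of same-numbered libraries from their group means correlated at -0.143 to 0.103, and the main fit did not pair libraries by number. In groups of 2 the deviations mirror each other, so these values cannot show whether the numbers pair libraries. Alternatives were DESeq2 1.42.0, scaling by library size alone, no filter on low counts, a fit of only the groups compared, the replicate number as a block, and leaving out each replicate. No library was left out of the reported values.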

Additional observations from a re-analysis of the deposited data

Results flagged for a closer look

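FANCG and SLX4 were singled out because the test of the difference between the LPS responses of the 2 genotypes called them. The difference, KO response minus WT response, was 0.63 for FANCG and 0.45 for SLX4 on the log2 scale. FANCG fell from a mean of 22.6 ± 0.575 CPM (SD, n = 3) to 12.5 ± 0.536 CPM (n = 2) in WT. In KO it went from 17.6 ± 1.68 to 15.1 ± 1.00 CPM, which was not called. SLX4 fell from 45.4 ± 3.70 to 24.1 ± 0.971 CPM in WT and from 44.2 ± 1.45 to 32.3 ± 1.20 CPM in KO. DNASE1, which shares the promoter region of SLX4, went from 17.4 to 7.24 CPM in WT and from 17.1 to 11.3 CPM in KO. In the same interaction test 6.42% of all genes were called higher and 5.57% lower. Of the 34 members 2 were called higher and 0 lower, which is no larger a share than among all genes. The count therefore does not set the members apart. SLX4 lost its call without KO LPS replicate 2. On simulated data the share of false calls in this test was above the nominal level of the threshold.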

How the results depend on the processing

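Over all called members and alternatives, 939 values kept direction and call, 115 kept direction and lost the call, and 0 reversed. Scaled by library size alone, members called higher were 1 for WT LPS against WT and 1 for KO LPS BMS against KO, and 26 were lower for KO LPS against KO. For KO LPS against WT LPS, members called higher and lower were 1 and 5 with DESeq2, 1 and 7 with no filter on low counts and 1 and 1 with only the groups compared; that last fit gave 1 lower for the interaction. The cause was not tested. Leaving out 1 replicate gave 1 to 3 higher for WT LPS against WT, 10 to 15 lower for KO LPS against KO, 1 to 2 higher and 0 to 8 lower for KO LPS against WT LPS, 1 to 3 higher and 0 to 1 lower for the interaction, and 2 to 4 higher for KO LPS BMS against KO.

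With the replicate number as a block, 1 member was higher for KO LPS against WT LPS, since FANCF was lost, and members called lower were 8 for KO against WT (MRE11 lost), 19 for WT LPS against WT and 15 for KO LPS against KO (BLM lost in both), 14 for the compound against KO LPS (ATM and BRIP1 lost) and 27 for KO LPS BMS against KO. WT LPS and KO LPS libraries of the same number correlated at -0.143 and those of KO LPS and KO LPS BMS at -0.128; with these numbers crossed, an alternative chosen after seeing the data, the counts were 1 higher and 3 lower, and 4 higher and 15 lower. Low genes such as RAD54B (mean 1.83 CPM) are limited by depth.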

Other observations

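Other repair pathways were counted in the same way. Of 7 mismatch repair genes 5 fell with the compound and 0 rose (0 at an unadjusted p under 0.05, and 0 by DESeq2), with a median of -0.54, where 25.5% of all genes were called lower. MSH6, a mismatch repair gene, fell by 0.29 ± 0.07 with LPS in WT, by 0.39 ± 0.08 with LPS in KO and by 0.54 ± 0.09 with the compound on the log2 scale (adjusted p = 0.00205, 0.000215 and 2.79e-05 by edgeR's quasi-likelihood test). Of 27 genes of nucleotide and base excision repair 18 fell and 3 rose with LPS in WT (66.7% lower, against 30.8% of all genes), 14 fell and 3 rose in KO (51.9%, against 20.3%), and 9 fell and 4 rose with the compound (33.3%, against 25.5%). DDB2, which finds ultraviolet damage, rose by 1.12 ± 0.08 with the compound.

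Of 10 tested end joining genes 5 rose and 5 fell with LPS in WT, where 28.9% of all genes were called higher and 30.8% lower, and in KO 3 rose and 1 fell, against 24.5% and 20.3%. Whether the lists differ was not tested. LIG4, the ligase of end joining, rose by 0.94 ± 0.08 in WT and by 0.72 ± 0.08 in KO, and APLF, an accessory factor, by 1.25 ± 0.13 and by 1.07 ± 0.14. With the compound XRCC6, a Ku subunit, rose by 0.31 ± 0.06 and 3 of 10 genes fell, against 25.5% of all genes.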
